A study of Mus musculus with 6 samples.

Results

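Metallothioneins and zinc transporters set how much zinc a cell holds and where. These data give 10 such genes in cultured brain endothelial cells with and without dolutegravir. They are the metallothionein genes Mt1 and Mt2, the zinc-sensing transcription factor gene Mtf1, the zinc efflux and vesicle loading genes Slc30a1, Slc30a5, Slc30a6 and Slc30a7, and the zinc uptake and release genes Slc39a7, Slc39a8 and Slc39a14. They were picked by name, with earlier results of these data known. Mapped to the identifiers of the deposited count table, they make up 10 of its 43271 genes. All 10 passed the filter on low counts.

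The cells were primary cultures of microvascular endothelium from the brains of wild-type (WT) C57bl/6 mice, used between passages 2 and 6. In the brain such cells line the capillaries and form the blood-brain barrier. One group received the vehicle dimethyl sulfoxide (DMSO, 3 libraries) and the other dolutegravir (DTG, 5000 ng/ml, 3 libraries), each for 24 h on confluent monolayers. Dolutegravir is an inhibitor of the HIV integrase that binds divalent metal ions in the enzyme's active site, and the series' title places the study in endoplasmic reticulum (ER) stress and barrier function. Both groups grew in the same endothelial medium with 5% serum, growth factors, heparin and hydrocortisone. Glucocorticoids such as hydrocortisone are known inducers of metallothionein genes. Age and sex of the mice are not given, and the labels do not say whether the libraries came from separate cultures. The p-values therefore speak only to the spread between libraries, which may be technical. Library names carry a P4 or P5 tag that the labels do not define: DMSO replicate 1 and DTG replicates 2 and 3 carry P4, and DMSO replicates 2 and 3 and DTG replicate 1 carry P5. The names also carry a number, 1 in DMSO replicates 1 and 2, 2 in DTG replicates 1 and 2, and 3 in the remaining library of each group, and whether libraries with the same number came from 1 culture is not stated.

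Zinc ions do not cross membranes unaided. Proteins of the SLC30 family (ZnT) move zinc out of the cytosol, either across the plasma membrane or into vesicles, Golgi and other compartments. Proteins of the SLC39 family (ZIP) move it into the cytosol from outside or from those compartments. Metallothioneins are small cysteine-rich proteins that bind zinc and copper, and MTF1 senses free zinc and binds metal response elements (MREs) in the promoters of Mt1, Mt2 and Slc30a1. Folding and maturation of many secreted enzymes need zinc in the secretory pathway.

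Library totals ranged from 41162353 to 56316335 counts. The ER chaperone gene Hspa5 was at 720.2 ± 40.3 CPM (read counts scaled to a common library size, here by the TMM method of edgeR) in DMSO and 13377 ± 2353 after DTG (mean ± SD over 3 libraries), and Ddit3, which encodes the stress factor CHOP, at 19.4 ± 2.34 and 586 ± 160. In both genes DTG replicate 1 was the lowest of the DTG libraries, at 10660 and 402.5 CPM. Of 10 endothelial markers all were tested and 8 were lower in DTG, with a summed level of 11257 to 12274 CPM in the DMSO and 6968 to 7327 CPM in the DTG libraries. Of 7 brain barrier markers 4 were tested, 2 were called higher and none was called lower. Their summed level was 172 to 203 CPM in the DMSO and 430 to 686 CPM in the DTG libraries. Both counts stand beside 27.4% called higher and 29.3% called lower among all genes tested. The 2 higher barrier markers were the glucose carrier gene Slc2a1 (log2 change 1.43) and the amino acid carrier gene Slc7a5 (2.77), while Slco1c1 and Slco1a4 had 0 counts in every library. Ocln was not called, but every DTG library (18.07 to 18.9 CPM) was below every DMSO library (20.6 to 21.3 CPM, log2 change -0.19). Among all genes tested 33.1% were lower without overlap. The summed markers of pericytes and smooth muscle (8 genes, 0.607 to 0.737 CPM in DMSO and 0.892 to 1.51 in DTG) and of astrocytes (8 genes, 0.115 to 0.197 and 0.0415 to 0.137) were near the detection limit, with Rgs5, Kcnj8, Aqp4 and Gjb6 at 0. The 8 microglia and macrophage markers summed to 86.5 to 101 and 121 to 181 CPM, nearly all from Cd68, a lysosomal protein gene (log2 change 0.62), while Lyz2 fell by 1.52 log2 and P2ry12 was at 0. The 6 fibroblast markers summed to 6.52 to 7.503 and 7.76 to 8.68 CPM, the 5 oligodendrocyte markers to 42.0 to 49.96 and 33.5 to 42.3 with Mog at 0, and the 5 neuron markers to 0.158 to 0.322 and 2.21 to 6.04 with Map2 at 0, the last from the tubulin gene Tubb3. The part of these marker levels in the results was not tested.

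Of the 10 genes 8 were higher in DTG, 1 (Slc39a8) was lower and 1 (Slc30a1) did not pass. A gene was called at an adjusted p under 0.05 in edgeR's quasi-likelihood F-test (Benjamini-Hochberg, 14101 genes tested), which also gave the adjusted p-values of single genes printed with no other test beside them. Among all genes tested 27.4% were called higher and 29.3% lower, 56.7% in all, and the median log2 change was -0.01, against 0.73 for the 10 genes. Since the 10 genes were chosen with earlier results of these data known, these contrasts are descriptions. The 8 higher genes and the 1 lower gene were also those whose DMSO and DTG libraries did not overlap; among all genes tested 64.2% did not overlap, 31.1% as higher and 33.1% as lower. In these bulk libraries, fewer cells of a type and less RNA per cell cannot be told apart. Scaling moved the split of calls over all genes: 3860 higher and 4130 lower with TMM, 2536 and 5730 with library size alone, and 3069 and 4963 with upper-quartile factors. Library size alone moved the median log2 change of all genes by -0.17, so every change is given relative to the TMM centre.

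**Figure D1:**
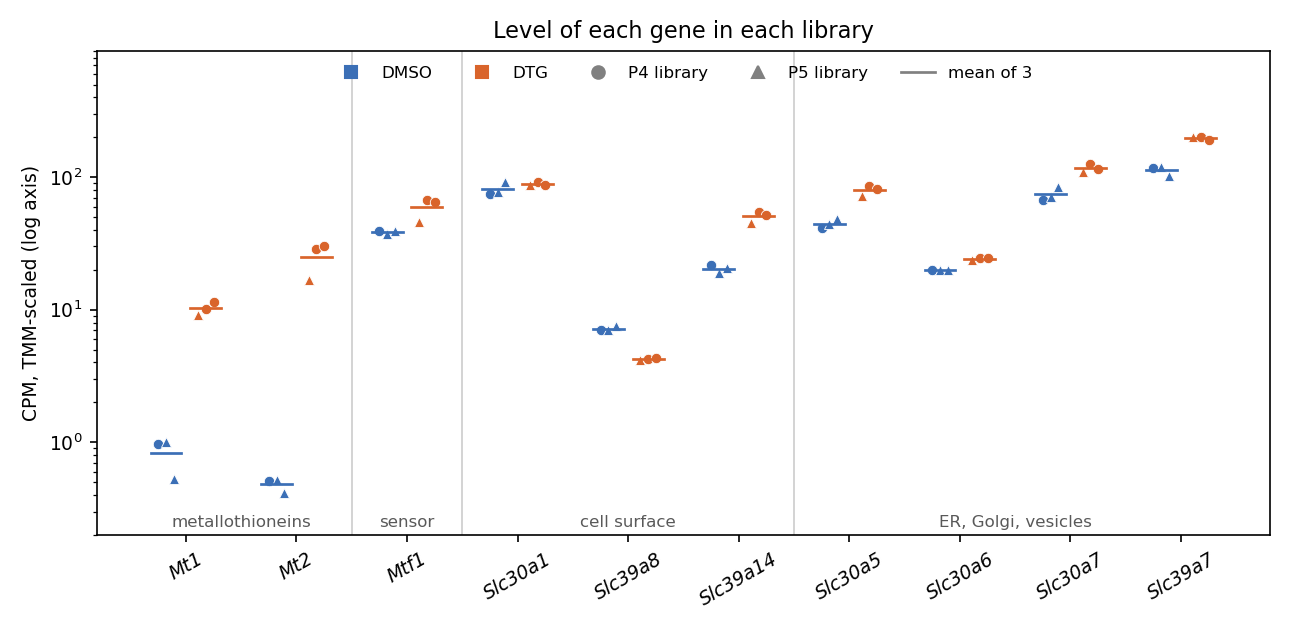
TMM-scaled CPM on a log axis for the 10 genes, grouped by role, with 1 point per library (circles P4, triangles P5, blue DMSO, orange DTG) and a line at each mean of 3. Mt1 and Mt2 sit near or below 1 CPM in all DMSO libraries and between 9.10 and 30.2 CPM in the DTG libraries, whereas Slc30a1 overlaps between groups.

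Mt1 and Mt2 had the largest changes of the 10 genes. Mt2 was at 0.512, 0.522 and 0.414 CPM in DMSO replicates 1, 2 and 3 and at 16.7, 28.8 and 30.2 CPM in DTG replicates 1, 2 and 3. Levels are given with SDs and log2 changes with SEs throughout. The Mt2 values rest on 75 reads in the DMSO and 3820 reads in the DTG libraries together. Every DTG library was far above every DMSO library, and DTG replicate 1, the P5 library, was the lowest of its group. The log2 change was 5.69 ± 0.27 (SE, adjusted p = 4.83e-07), a 51.4-fold difference that ranked at percentile 99.7 of all genes tested. The P4 libraries alone gave 5.74 and the P5 libraries alone 5.05.

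Mt1 was at 0.965, 1.01 and 0.530 CPM in the DMSO libraries and 9.10, 10.1 and 11.5 CPM in the DTG libraries. The groups did not overlap, and the lowest DMSO value was that of replicate 3. The log2 change was 3.59 ± 0.21 (SE, adjusted p = 6.81e-07), or 12.01-fold, with 3.43 within P4 and 3.56 within P5. Reads of Mt1 and Mt2 are separable by sequence, since the longest run that their annotated transcripts share is 20 bases and none of their 50-base words occurs in another gene's transcripts. Mt2 overlaps an antisense gene, Gm45774, over 73.5% of its exonic bases, and that gene had 3 reads in all libraries.

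The order of the 2 metallothionein genes by reads differed between the groups. The ratio of Mt2 to Mt1 read counts within a library, which does not depend on how libraries are scaled, was 0.531, 0.517 and 0.783 in DMSO and 1.83, 2.85 and 2.62 in DTG. Mt1 had more reads in every DMSO library and Mt2 in every DTG library. Reads are not scaled by gene length, and the order in DMSO depends on the length used. Per kb of all annotated exons Mt2 was already above Mt1 in every DMSO library (0.871, 0.889 and 0.705 against 0.774, 0.812 and 0.425 CPM per kb). Per kb of the principal transcript Mt1 was above Mt2 in every DMSO library. The mean log2 ratio was 2.00 higher in DTG (two-sided exact permutation test, p = 0.1, which is the lowest value 3 libraries a group can give, and 0.14 adjusted over the 7 ratios tested). Mt3, the isoform known from neurons, went the other way on few reads, 66 in DMSO and 28 in DTG (log2 change -1.23 ± 0.44, adjusted p = 0.0352), and this call was lost with DESeq2 (adjusted p = 0.0774) and without DMSO replicate 1 or 3 or DTG replicate 1, 2 or 3 (adjusted p = 0.187, 0.0522, 0.0566, 0.121 and 0.0652). Mt4 had 1 read in all libraries.

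The sequences around the annotated starts of Mt1 and Mt2 are shown because these genes moved most and because MREs are what the zinc sensor binds; Slc30a1 is set beside them as the third gene with known MREs, and Slc30a5 for a stress motif. Each line gives 280 bases, the 250 before the annotated start and the first 30 from it, 5′ to 3′ on the gene's strand, from RefSeq (GRCm38.p6, which is not the build of the counts). Capitals in the first 3 lines mark the MRE core, searched as TGCACNC and TGCGCNC on both strands; capitals in the fourth mark TGACGTG, the core of the unfolded protein response element. The regions are chr8:94178839-94179118 (+) for Mt1, chr8:94172368-94172647 (+) for Mt2, chr1:191906531-191906810 (+) for Slc30a1 and chr13:100833398-100833677 (-) for Slc30a5.
Mt1: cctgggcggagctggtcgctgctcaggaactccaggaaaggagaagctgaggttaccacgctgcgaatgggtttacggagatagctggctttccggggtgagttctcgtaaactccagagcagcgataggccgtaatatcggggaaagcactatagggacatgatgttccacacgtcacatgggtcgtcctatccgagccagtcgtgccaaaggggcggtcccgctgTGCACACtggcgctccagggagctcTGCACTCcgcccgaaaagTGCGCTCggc
Mt2: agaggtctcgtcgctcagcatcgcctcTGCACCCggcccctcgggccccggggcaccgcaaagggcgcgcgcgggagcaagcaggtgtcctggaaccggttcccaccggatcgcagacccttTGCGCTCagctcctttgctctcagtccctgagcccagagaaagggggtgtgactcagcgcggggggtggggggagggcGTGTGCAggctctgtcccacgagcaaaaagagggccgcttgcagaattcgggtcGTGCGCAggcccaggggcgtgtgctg
Slc30a1: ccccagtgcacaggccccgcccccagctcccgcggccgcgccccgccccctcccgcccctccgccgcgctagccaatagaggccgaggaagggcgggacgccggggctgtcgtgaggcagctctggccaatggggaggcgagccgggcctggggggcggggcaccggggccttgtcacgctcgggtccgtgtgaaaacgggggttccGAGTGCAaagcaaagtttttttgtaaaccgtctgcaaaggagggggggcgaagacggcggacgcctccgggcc
Slc30a5: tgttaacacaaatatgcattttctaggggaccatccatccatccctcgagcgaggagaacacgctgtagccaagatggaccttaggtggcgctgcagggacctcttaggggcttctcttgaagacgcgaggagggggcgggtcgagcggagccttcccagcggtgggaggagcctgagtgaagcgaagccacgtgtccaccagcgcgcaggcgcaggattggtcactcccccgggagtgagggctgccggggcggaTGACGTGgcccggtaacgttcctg

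Over full windows of 300 bases, 250 before and 50 after the start, Mt1 held 3 MRE cores, Mt2 4, Slc30a1 2, Slc30a5 1 and the second of the 2 windows of Slc39a8 1. Over all genes, 25.7% of 32851 such windows held at least 1 core and 1.97% held 3 or more. Taken by form, TGCACNC occurred in 12.6% and TGCGCNC in 15.4% of windows. In Mt1 the matches began at bases -23, 3 and 21 from the start, in Mt2 at -223, -128, -50 and 5, and in Slc30a1 at -43 and 31, the last just past the printed end. The annotated starts lie upstream of a TATAAA box inside the principal transcript, at base 129 of Mt1 and base 90 of Mt2. The first 150 bases of these transcripts, which overlap the windows in part, held 4 cores in Mt1 and 3 in Mt2, all before that box, counts that 0.0616% and 0.435% of 29215 principal transcripts reached or passed. The windows of Mtf1, Slc30a6, Slc30a7 and Slc39a7 held no core, and Slc39a14 had no window. TGACGTG matched in Mt1, on the minus strand at base -79, and in Slc30a5 at base 7, against 2.01% of all windows. The ATF4-type composite element TGATGNAAN (3.95% of windows) and the ER stress response element ERSE (0.119%) matched in none of the windows of the 9 genes that had one.

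**Figure D2:**
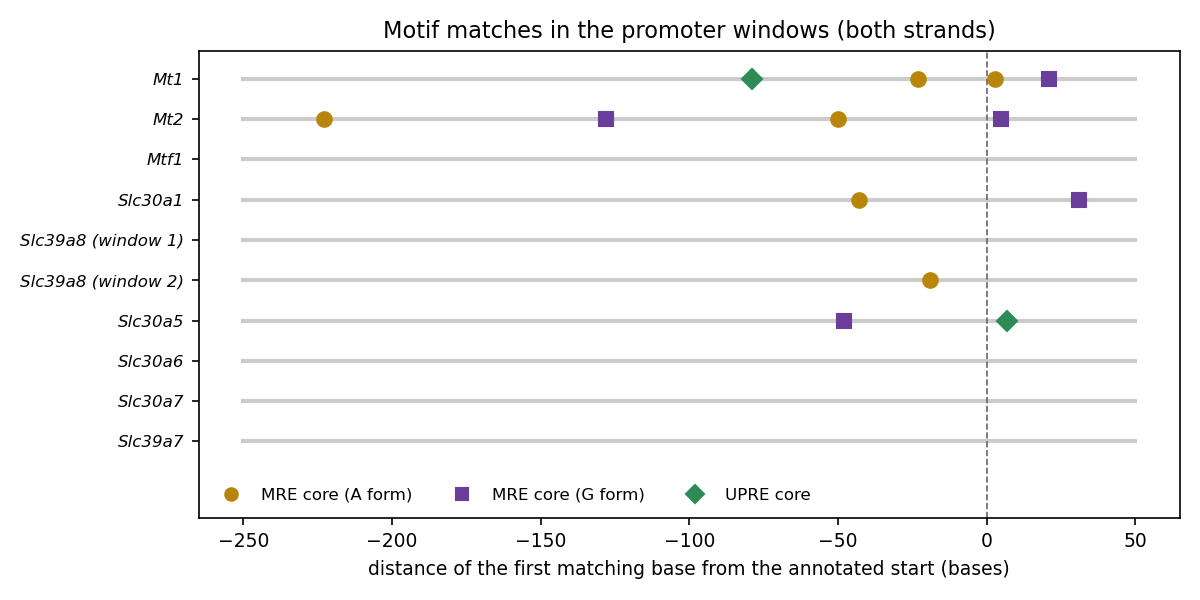
First base of each motif match, on either strand, as the distance in bases from the annotated start (dashed line) for the 10 promoter windows of 9 genes. Mt1, Mt2 and Slc30a1 hold 3, 4 and 2 MRE cores, and Mtf1, Slc30a6, Slc30a7 and Slc39a7 hold none.

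The zinc sensor gene Mtf1 was at 39.4, 37.1 and 39.1 CPM in the DMSO libraries against 45.8, 67.6 and 64.6 CPM in the DTG libraries. All DTG libraries were above all DMSO libraries, but DTG replicate 1 stood closer to the DMSO values than to the other DTG libraries. The log2 change was 0.62 ± 0.13 (adjusted p = 0.00230). It was 0.74 among P4 and 0.27 among P5 libraries, and 0.81 without DTG replicate 1. The treatment by tag interaction had an unadjusted p of 0.00931 and an adjusted p of 0.414 by edgeR's quasi-likelihood test. Mtf1 shares 8.1% of its exonic bases with 1110065P20Rik on the opposite strand, which was itself higher (0.73 ± 0.11), and the strand setting of the counting is not given in the sources used here.

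Of 11 other genes reported as MTF1 targets, all tested, 4 rose and 1 fell, with a median log2 change of -0.12, beside 27.4% higher and 29.3% lower among all genes. The 11 include Slc39a10, which MTF1 is known to repress when zinc is high, so they share no expected direction. Slc39a10 is also counted among the further family genes below. Ndrg1, a stress- and hypoxia-responsive gene, rose from 117 ± 4.91 to 376 ± 95.9 CPM (log2 change 1.68 ± 0.17, adjusted p = 4.09e-05). Hmox1, the heme oxygenase gene that many stresses induce, rose from 190 ± 42.6 to 540 ± 64.9 CPM (1.505 ± 0.15). Txnrd1, the cytosolic thioredoxin reductase gene, rose by 0.27 ± 0.07 log2, and Selenoh, a selenoprotein gene, fell by 0.59 ± 0.12 log2. The Txnrd1 call was lost with library-size scaling and with upper-quartile factors (adjusted p = 0.245 and 0.0543).

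Among the genes of the cell surface Slc39a14 rose, Slc39a8 fell and Slc30a1 did not pass. Slc30a1, which encodes the plasma membrane exporter ZnT1, was at 74.5, 76.8 and 92.0 CPM in the DMSO libraries against 87.9, 91.5 and 88.0 CPM in the DTG libraries. DMSO replicate 3 was the highest of the 6 libraries and the groups overlapped. The log2 difference was 0.14 ± 0.09 with a 95% interval from -0.06 to 0.34 (adjusted p = 0.220). Without DMSO replicate 3 it was 0.24 (adjusted p = 0.0115), and with library-size scaling -0.03 (adjusted p = 0.756). Slc30a1 shares 8.9% of its exonic bases with the antisense gene 1700034H15Rik, which had 1027 reads against 25974.

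Slc39a14 encodes ZIP14, an importer of zinc, manganese and iron that inflammation and ER stress are known to induce. It was at 21.6, 18.9 and 20.6 CPM in the DMSO libraries against 45.4, 55.0 and 52.2 CPM in the DTG libraries. The groups lay far apart, and the lowest DTG library was more than 2 times the highest DMSO library. The log2 change was 1.32 ± 0.10 (adjusted p = 3.05e-06), or 2.497-fold, with 1.31 within P4 and 1.1998 within P5.

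Slc39a8 encodes ZIP8, the closest relative of ZIP14 and a carrier of zinc and manganese. It was at 7.07, 6.99 and 7.51 CPM in the DMSO libraries against 4.18, 4.21 and 4.29 CPM in the DTG libraries, the only one of the 10 genes to fall. Its log2 change was -0.76 ± 0.11 (adjusted p = 0.000213), a 1.70-fold decrease with -0.73 within P4 and -0.79 within P5. The Slc39a14 to Slc39a8 count ratio was 3.06, 2.70 and 2.75 in DMSO and 10.9, 13.1 and 12.2 in DTG, and the Slc39a14 to Slc30a1 ratio was 0.290, 0.246 and 0.224 and 0.516, 0.602 and 0.593. Neither ratio overlapped between groups, and the mean log2 ratios were 2.08 and 1.18 higher in DTG (two-sided exact permutation p = 0.1 and adjusted p = 0.14 for each, the smallest possible p here being 0.1).

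**Figure D3:**
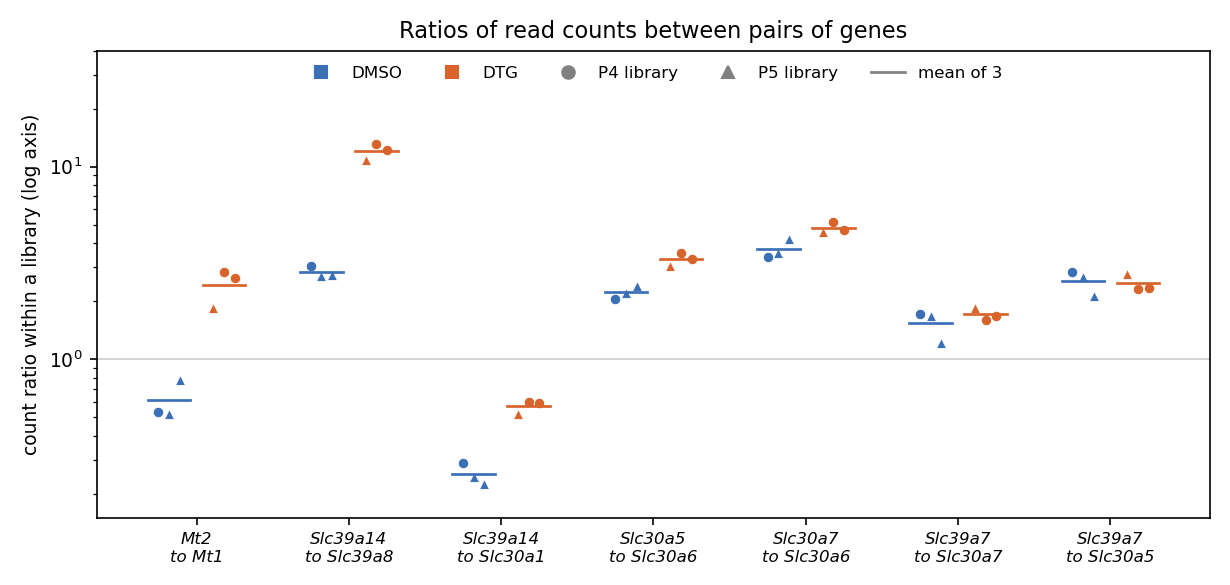
Ratio of read counts between 2 genes within each library, on a log axis, for 7 pairs (circles P4, triangles P5, blue DMSO, orange DTG, lines at means of 3). The first 5 pairs separate the groups without overlap, while Slc39a7 to Slc30a7 and Slc39a7 to Slc30a5 overlap.

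The 4 genes of carriers in the secretory pathway rose, with smaller changes than Mt1 and Mt2. Slc39a7 encodes ZIP7, which releases zinc from the ER and Golgi into the cytosol. It was at 117, 119 and 103 CPM in the DMSO libraries against 201, 201 and 193 CPM in the DTG libraries, with narrow spread in DTG and DMSO replicate 3 lowest. The log2 change was 0.81 ± 0.08 (adjusted p = 1.73e-05). It was 0.75 among P4 and 0.86 among P5 libraries. Over 80.7% of its exonic bases it shares the strand and position of Gm20427, a transcript that had 1420 reads in DMSO and 3565 in DTG (log2 change 1.34 ± 0.14) against 17460 and 30342 for Slc39a7, and 74.5% of its transcript words of 50 bases occur in transcripts of other genes, so reads may be split between Slc39a7 and Gm20427.

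Slc30a5 encodes ZnT5, which pairs with ZnT6 to load zinc into the early secretory pathway. It was at 41.2, 44.3 and 48.1 CPM in the DMSO libraries against 72.2, 86.4 and 82.1 CPM in the DTG libraries, so the groups did not overlap and DTG replicate 1 was lowest of its group. The log2 change was 0.85 ± 0.09 (adjusted p = 3.56e-05). It was 1.03 among P4 and 0.64 among P5 libraries.

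Slc30a6, the gene of the partner ZnT6, was at 19.99, 19.99 and 19.96 CPM in the DMSO and 23.7, 24.4 and 24.7 CPM in the DTG libraries. The groups did not overlap, but the log2 change was 0.28 ± 0.08 (adjusted p = 0.0117), and the call was lost with library-size scaling (0.11, adjusted p = 0.263) and upper-quartile factors (0.19, adjusted p = 0.0660). The Slc30a5 to Slc30a6 ratio, free of that scaling, was 2.06, 2.22 and 2.41 in DMSO and 3.04, 3.54 and 3.33 in DTG. It was 0.57 log2 higher in DTG without overlap (two-sided exact permutation p = 0.1, adjusted p = 0.14).

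Slc30a7 encodes ZnT7, a Golgi zinc carrier that works as a homodimer. It was at 67.6, 70.8 and 84.5 CPM in the DMSO libraries against 109, 125 and 116 CPM in the DTG libraries, a log2 change of 0.65 ± 0.10 (adjusted p = 0.000307). Within P4 it was 0.83 and within P5 0.49. The Slc30a7 to Slc30a6 ratio was 3.38, 3.54 and 4.23 in DMSO and 4.58, 5.13 and 4.68 in DTG, 0.37 log2 higher (two-sided exact permutation p = 0.1, adjusted p = 0.14). The ratio of the release gene Slc39a7 to each of the loading genes Slc30a7 and Slc30a5 overlapped between groups. It was 1.54 ± 0.28 and 1.71 ± 0.13 against Slc30a7 (two-sided exact permutation p = 0.6, n = 3 each) and 2.55 ± 0.36 and 2.48 ± 0.26 against Slc30a5 (exact permutation p = 0.9). A ratio of Slc39a7 to the loading gene Slc30a6 was not among those tested, and their log2 changes were 0.81 and 0.28.

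**Figure D4:**
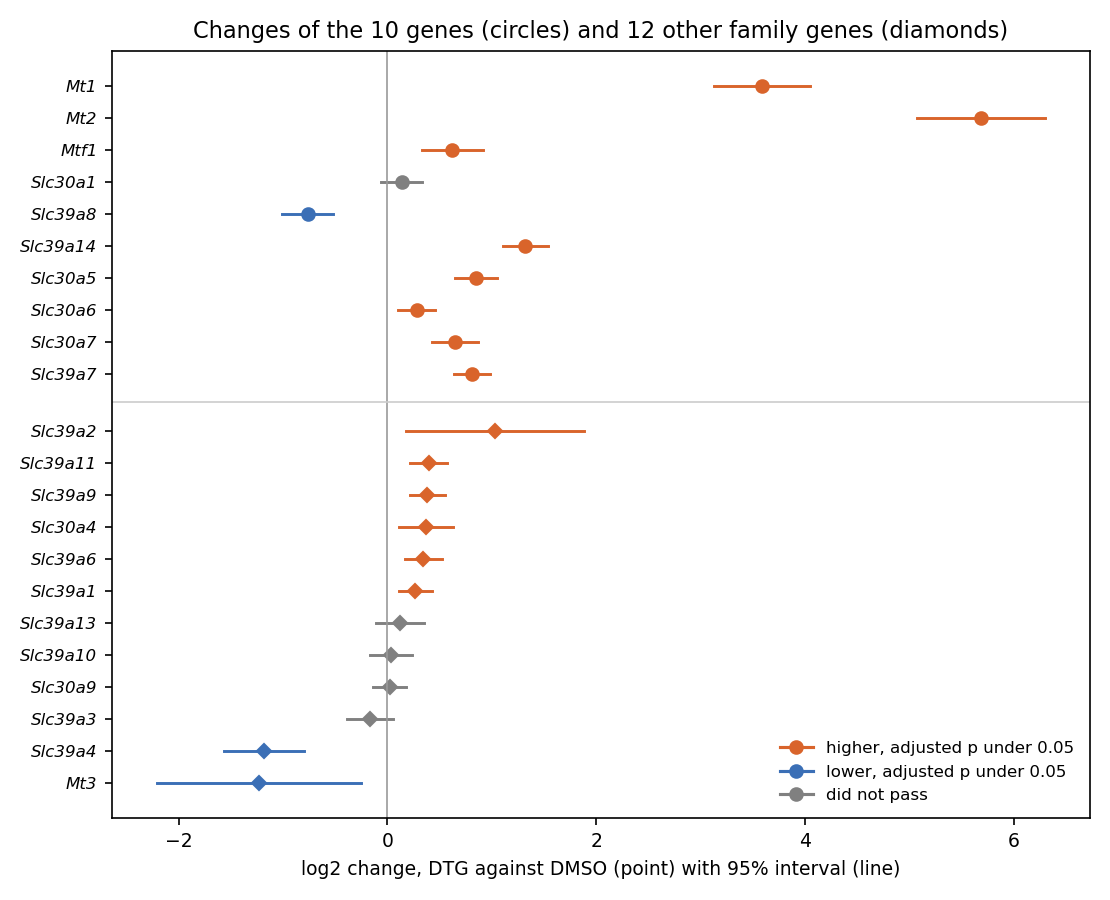
Log2 change of DTG against DMSO with its 95% interval for the 10 genes (circles, by role) and the 12 other SLC30, SLC39 and metallothionein genes that were tested (diamonds, by size). Mt2 and Mt1 stand at 5.69 and 3.59 and the secretory pathway genes between 0.28 and 0.85. The intervals of Slc39a8, Slc39a4 and Mt3 lie wholly below 0, while that of Slc39a3, at -0.17, crosses 0.

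Of 19 further SLC30, SLC39 and metallothionein genes 12 were tested, of which 6 rose, 2 fell and 4 did not pass, with a median log2 change of 0.19, beside 27.4% higher and 29.3% lower among all genes. With library-size scaling 2 rose and 3 fell, and with upper-quartile factors 3 rose and 2 fell. The Golgi zinc carrier gene Slc39a9 rose from 81.1 ± 2.57 to 106 ± 6.35 CPM (0.38 ± 0.08 log2), and Slc39a11 from 48.2 ± 2.76 to 63.5 ± 3.71 CPM (0.40 ± 0.08). Slc39a1, a plasma membrane importer gene, rose from 199 ± 5.03 to 239 ± 10.8 CPM (0.27 ± 0.07), Slc39a6 from 34.6 ± 2.34 to 44.0 ± 1.13 CPM (0.35 ± 0.08) and the vesicle carrier gene Slc30a4 from 103 ± 19.3 to 133 ± 2.45 CPM (0.37 ± 0.12). Slc39a1, Slc39a6 and Slc30a4 did not pass with library-size scaling (adjusted p = 0.288, 0.0785 and 0.162). With upper-quartile factors Slc39a1 and Slc30a4 did not pass either (adjusted p = 0.0624 and 0.0629). The Slc30a4 call was also lost without DMSO replicate 1 or 2 (adjusted p = 0.0873 and 0.0904). Slc39a4, the importer gene mutated in acrodermatitis enteropathica, fell from 8.42 ± 1.89 to 3.72 ± 0.44 CPM (-1.18 ± 0.17, adjusted p = 0.000233). Slc39a2, with 22 reads in DMSO and 45 in DTG, passed at adjusted p = 0.0407 and lost the call with library-size scaling, upper-quartile factors, no filter, DESeq2 and without any single library other than DMSO replicate 2 (adjusted p from 0.0567 to 0.159, and 0.141, 0.0966, 0.0590, 0.130 and 0.0567 without DMSO replicates 1 and 3 and DTG replicates 1, 2 and 3).

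Slc39a10, a plasma membrane importer gene that MTF1 is known to repress when zinc is high, was at 80.1 ± 9.51 and 82.0 ± 2.05 CPM (0.04 ± 0.09, adjusted p = 0.762, and -0.14 with library-size scaling). Slc30a9 (0.02 ± 0.07, and -0.15 with library-size scaling), Slc39a3 (-0.17 ± 0.10) and Slc39a13 (0.12 ± 0.10, and -0.05 with library-size scaling) did not pass either, though Slc39a3 passed as lower with library-size scaling and without DMSO replicate 3 (adjusted p = 0.0184 and 0.0407). Of the 7 genes too low to test, Slc39a5 had the most reads, 3 in DMSO and 6 in DTG, and Slc30a8, Slc30a10 and Slc39a12 had 0.

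Levels of different genes were compared per length, as CPM per kb of annotated exon (union of exons of the gene, from the GRCm38 annotation, matched by identifier). Among 28 SLC30, SLC39 and metallothionein genes Slc39a1 was highest in both groups, at 84.1 ± 2.13 CPM per kb in DMSO and 101 ± 4.59 in DTG, and Slc39a7 followed at 43.7 ± 3.36 and 76.7 ± 1.87. Of the transcript words of 50 bases 21.8% of those of Slc39a1 and 74.5% of those of Slc39a7 also occur in transcripts of other genes. The levels of both are therefore less certain, that of Slc39a7 more so. The order of the genes after these depended on the length used. By exon union Slc30a4 (18.9 ± 3.53) and Slc30a1 (15.5 ± 1.81) came next in DMSO, whereas by the longest or principal transcript Slc30a9 was at rank 3 (26.2 ± 1.27, against 12.1 ± 0.585 by exon union) and Slc30a1 at rank 6 or 7. By exon union Slc30a7, Slc30a6 and Slc30a5 were at 6.68 ± 0.81, 6.50 ± 0.00457 and 6.11 ± 0.47 in DMSO and 10.5 ± 0.75, 7.89 ± 0.16 and 10.997 ± 1.001 in DTG. By principal transcript they were at 8.23 ± 0.99, 9.30 ± 0.00654 and 14.01 ± 1.08 in DMSO and 12.9 ± 0.93, 11.3 ± 0.23 and 25.2 ± 2.30 in DTG. By exon union Slc30a5 was below Slc30a7 in every DMSO library (5.65, 6.08 and 6.60 against 6.08, 6.37 and 7.60). In every DTG library it was slightly above Slc30a7 (9.89, 11.8 and 11.3 against 9.76, 11.3 and 10.4). By principal transcript Slc30a5 was above both others in every library of each group, so the order of these genes also depended on the length used. Slc39a14 was at 1.93 ± 0.13 and 4.82 ± 0.47 and Slc39a8 at 0.938 ± 0.036 and 0.552 ± 0.008. Mt2 moved from rank 18, at 0.821 ± 0.101 CPM per kb, to rank 3, at 42.9 ± 12.6, and Mt1 from rank 19 to rank 14, at 0.670 ± 0.213 and 8.21 ± 0.96. With the length of the principal transcript in place of the exon union, Mt1 was at 18.6 and rank 9 in DTG and Slc30a5 at rank 5, while Mt2 kept rank 3.

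The summed level of the 24 SLC30 and SLC39 genes was 261 ± 3.11 CPM per kb in DMSO and 338 ± 5.61 in DTG. The SLC39 genes held 74.8% ± 2.6 of it in DMSO and 75.5% ± 0.9 in DTG, so the split between the families overlapped between groups. Within it, Slc39a7 held 16.7% ± 1.34 and 22.6% ± 0.22, Slc30a5, Slc30a6 and Slc30a7 together 7.38% ± 0.44 and 8.68% ± 0.61, Slc30a1 5.92% ± 0.66 and 5.02% ± 0.12, and Slc39a8 with Slc39a14 1.10% ± 0.07 and 1.59% ± 0.15. These shares are descriptions and depend on the annotated lengths, and that of Slc39a7 also on how reads were split with Gm20427.

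**Figure D5:**
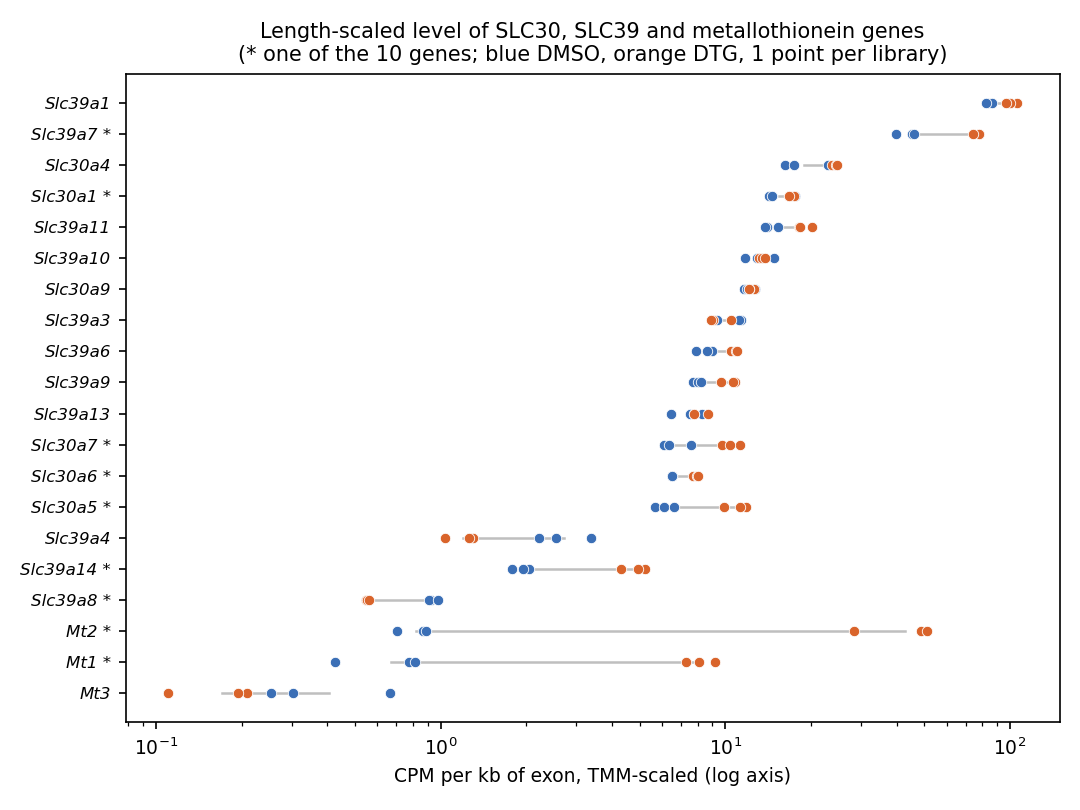
Length-scaled level (CPM per kb of exon, log axis) of the SLC30, SLC39 and metallothionein genes above 0.1 CPM per kb in either group, ordered by DMSO, with 1 point per library (blue DMSO, orange DTG) and a line between group means. Mt2 crosses from below 1 to about the level of Slc39a7 in DMSO, 43.7 CPM per kb, and Slc39a8 is lower in all 3 DTG libraries.

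Of 15 genes of zinc, copper, iron, manganese and calcium handling 12 were tested, 6 rose and 2 fell (median 0.22). Zng1, which encodes a zinc chaperone of the cytosol, rose from 20.5 ± 1.14 to 33.6 ± 1.60 CPM (log2 change 0.71 ± 0.08, adjusted p = 6.06e-05). The copper importer gene Slc31a1 rose from 49.5 ± 2.56 to 79.6 ± 1.44 CPM, its relative Slc31a2 fell from 60.0 ± 4.18 to 33.3 ± 2.64 CPM, and the ferritin heavy chain gene Fth1 rose from 3117 ± 210 to 5168 ± 855 CPM. Of 19 genes of enzymes and chaperones that bind zinc in the secretory pathway or at the surface 15 were tested, 4 rose and 7 fell (median -0.14), again beside 27.4% and 29.3% among all genes. Ace, the angiotensin-converting enzyme gene, fell from 443 ± 32.2 to 241 ± 4.11 CPM and the endothelin-converting enzyme gene Ece1 from 313 ± 12.4 to 216 ± 22.0 CPM. The ecto-nucleotidase gene Nt5e rose from 0.203 ± 0.080 to 1.46 ± 0.51 CPM and the metalloprotease gene Adam9 from 133 ± 9.74 to 180 ± 8.58 CPM.

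Of 9 transcription factor genes of stress programs 7 rose and 2 fell, beside 27.4% higher and 29.3% lower among all genes. Atf4 rose by 2.45 ± 0.16, Xbp1 by 1.34 ± 0.09 and Atf6 by 0.97 ± 0.09 log2, and Ddit3 by 4.91 ± 0.23. The 2 that fell were Nfe2l2 (log2 change -0.38 ± 0.08) and Nr3c1 (-0.30 ± 0.10). In Hspa5, Ddit3 and Atf4, and in each of the 10 genes other than Slc39a7, DTG replicate 1 had the lowest value of the DTG libraries. In Slc39a8, which fell, that lowest value lies farthest from the DMSO libraries, and in Slc30a1 it differed little from DTG replicate 3 (87.89 and 87.97 CPM). DTG replicate 1 is also the only P5 library of its group, and leaving it out changed no call among the 10 genes. Over all genes, no treatment by tag interaction passed in edgeR's quasi-likelihood test (0 of 14101, with 1351 at an unadjusted p under 0.05), a test with 2 residual degrees of freedom, and for Mt1 and Mt2 the interaction had adjusted p = 0.992 and 0.517.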

How the data were processed

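RNA was extracted with TRIzol and made into libraries with a stranded TruSeq mRNA kit, per the labels' protocols. The authors deposited gene counts without normalization, on GRCm39 per the submitters' processing notes. No aligner, counter, strand setting or annotation is named there. One column spells the drug DIG and was mapped to DTG replicate 1 by its library name. Symbols were matched for 38606 of 43271 identifiers (89.2%); Zng1 was matched through its older symbol.

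The test was edgeR 4.0.16 (R 4.3.3, filterByExpr, TMM, robust quasi-likelihood F-test, 14101 genes), also run on simulated data in which few genes changed. Those simulations do not bear on the choice of scaling here, where 56.7% of the genes tested were called. CPM used TMM-scaled library sizes. Alternatives changed scaling, filter, replicate block, P tag or tool (DESeq2 1.42.0, limma 3.58.1), or left out a library. Exact permutation tests used scipy 1.17.1. Lengths and promoters came from GRCm38 references. Named are the 10 genes, all others of their families, the 4 smallest p-values of each other list, and Hspa5 and Ddit3. Cd68, Lyz2, Tubb3, Slc2a1, Slc7a5, Ocln, Nfe2l2 and Nr3c1 were named after their values were seen. The genes and lists were chosen with earlier results of these data known. Protein sequences were not analysed here.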

Additional observations from a re-analysis of the deposited data

How the results depend on the processing

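With 3 libraries a group, no exact permutation p can fall below 0.1. The calls of Mt3 and Slc39a2, genes with few reads, were lost when any 1 of most of the libraries was left out. Of the 10 genes, 8 kept their call in all 15 alternatives with a test. Slc30a6 was at 0.11 log2 with scaling by library size and 0.19 with upper-quartile factors, both no longer past the threshold, and these alternatives called 7 of the genes higher. Slc30a1 turned to -0.034 with library size alone and ranged from 0.078 to 0.24 when 1 library was left out, passing only without DMSO replicate 3. With library size alone, with upper-quartile factors and without DMSO replicate 1, Slc30a9 turned to -0.15, -0.072 and -0.0090 and Slc39a10 to -0.14, -0.057 and -0.043, and Slc39a13 turned to -0.049 with library size alone. When 1 library was left out, Slc30a9 ranged from -0.0090 to 0.061 and Slc39a10 from -0.043 to 0.13. Within the P4 libraries, with no test, Slc30a1 was at 0.27, Slc30a5 at 1.03 and Slc30a7 at 0.83, and within the P5 libraries Mt2 was at 5.05, Mtf1 at 0.27, Slc30a5 at 0.64, Slc30a6 at 0.25 and Slc30a7 at 0.49. Over all genes 2536 were called higher with library size alone against 3860. Of the other family genes 2 were called higher when scaled by library size and 3 with upper-quartile factors against 6, and 1 was called lower with the filter at 1 CPM and with DESeq2 against 2, or 1 to 2 when 1 library was left out. The cause of these changes was not tested. With the replicate number of the sample titles as a block, 8 of the 10 genes were higher and 1 lower. Over all genes 3543 were then higher and 3728 lower against 3860 and 4130. Deviations of libraries with the same replicate number correlated at -0.282, 0.009 and -0.052, so replicate numbers were not taken to pair the samples. Those pairs each join a P4 and a P5 library. DMSO and DTG libraries of the same tag correlated at 0.17 and 0.196 (P4) and 0.105 and 0.17 (P5). The remaining pairs, of unlike tag, were at -0.156 and -0.161. The cause was not tested. Pairing by the number in the library names was not examined.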
